A study of Mus musculus with 24 samples.

Results

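The vector control group (NC) consisted of P815 cells, a cell line grown from a mouse mast cell tumour, that had been transfected with a negative control vector and grown in RPMI-1640 with 10% fetal bovine serum. It comprised 3 of the 24 libraries of the series, and its own labels state neither a treatment nor a time. A protocol text common to all samples mentions estradiol for transfected cells, and a separate vector control group is labelled as estradiol-treated. The labels name neither the vector nor an allele, and do not say whether the transfected cells were a clone or a pool. The other 7 groups carried an Esr1 hairpin vector, received estradiol or an antiestrogen, or combined these, and were not used here. RNA-seq of total RNA gave FPKM (fragments per kilobase of transcript, scaled to the fragments of the library) and estimated counts for 55385 gene rows. The transcripts described below are the 11189 rows with a mean of 1 FPKM or more over the NC libraries, which is 20.2% of the table. The libraries held 53.1, 58.4 and 63.5 M estimated counts (M stands for 1000000) in replicates 1, 2 and 3, and values for 3 libraries are given in that order throughout. Errors are the SD over these 3 libraries (n = 3). The labels do not say whether they were separate cultures, so the SD may be technical. No comparison between groups was made, and no test was run.

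Mast cells are granulated immune cells that depend on the receptor tyrosine kinase Kit, whose ligand is stem cell factor. They store histamine, heparin and proteases (tryptases, chymases and carboxypeptidase A) in secretory granules and release them when antigen crosslinks IgE held on the high-affinity receptor FcεRI. P815 cells are a standard model of mastocytoma, carry an activating mutation in the Kit kinase domain, and are widely used as targets in assays of cytotoxic T cells.

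Of the 21804 rows with a protein-coding biotype, 9458 (43.4%) reached a mean of 1 FPKM. The remaining rows above this level were 1144 pseudogenes, 305 long non-coding RNAs, 113 small nucleolar RNAs, 57 microRNA rows and 112 of other kinds. Of all rows above the level, 10529 had 1 FPKM or more in each library, whereas 660 reached it through their mean. The median level was 7.698 FPKM. A mean of 10 FPKM was reached by 4717 rows, 100 FPKM by 484 and 1000 FPKM by 42. No count was recorded in any NC library for 7018 protein-coding rows. Just inside the level stood Trim21 with 0.793, 1.28 and 0.932 FPKM, Gtdc1 with 1.104, 0.818 and 1.09 FPKM and Zfp85 with 1.08, 1.04 and 0.884 FPKM. Just outside it were Klhdc1 with 0.819, 0.973 and 1.204 FPKM, Srl with 0.956, 0.846 and 1.19 FPKM and Elovl3 with 1.18, 0.874 and 0.9402 FPKM. Each of these 6 genes had libraries on both sides of 1 FPKM.

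The top of the ranking was held by transcripts of energy metabolism and protein synthesis. The 13 protein-coding genes of the mitochondrial genome, which encode subunits of the respiratory chain and ATP synthase, ranged from 1088 FPKM for mt-Nd3 to 7973 FPKM for mt-Co1. mt-Co1, a subunit of cytochrome c oxidase, had 7762, 8149.8 and 8006 FPKM and was the highest of all rows. Mitochondrially encoded genes took 5.18, 5.42 and 5.402% of the estimated counts, and 14.1, 14.9 and 14.2% of the summed FPKM, in which short transcripts weigh more. The 86 cytosolic ribosomal protein rows, paralogs included, took 9.78, 8.56 and 9.48% of the summed FPKM. Their median was 292 FPKM, and 72 of them reached 100 FPKM. Rplp1, a protein of the ribosomal stalk, was the highest with 2545, 2513 and 2716 FPKM. The 100 highest rows of each library carried 39.9, 39.6 and 39.9% of its summed FPKM. By mean level, the 100 highest comprised 17 mitochondrially encoded genes, 27 ribosomal protein genes, 24 pseudogenes, 4 microRNA rows and 28 others.

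**Figure D1:**
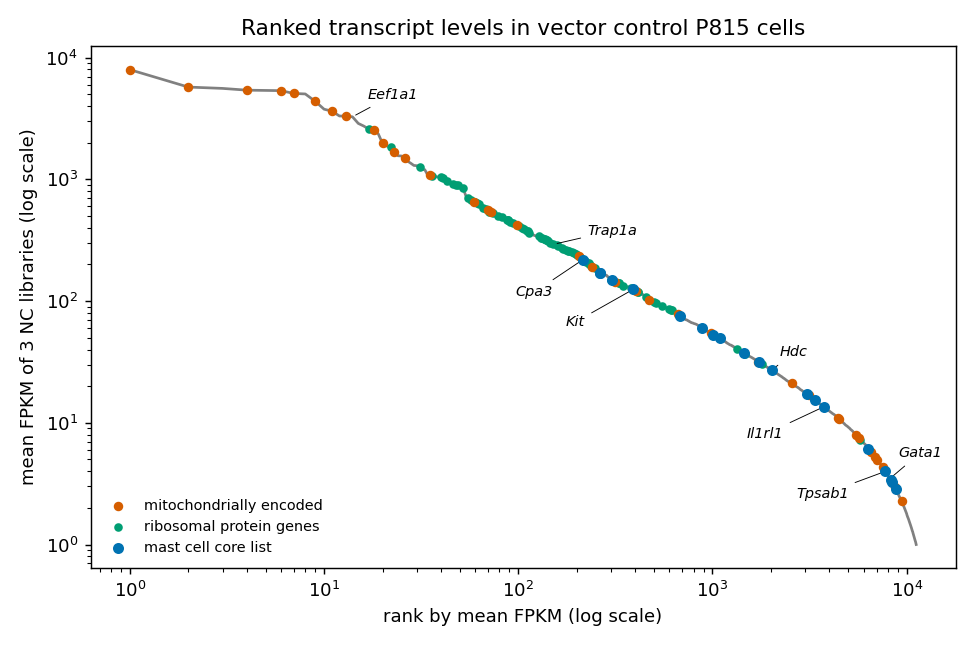
Mean FPKM over the 3 NC libraries (log axis) against rank (log axis) for the 11189 rows at 1 FPKM or more, with mitochondrially encoded genes, transfer RNAs among them, in orange, cytosolic ribosomal protein genes in green and the mast cell core list in blue. The protein-coding mitochondrial genes sit among the 35 highest rows, Cpa3 ranks 215 and Kit ranks 390.

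Several of the highest rows cannot be separated from a near-identical or overlapping gene. The 5 highest rows without a protein-coding biotype all carry predicted names. Among the pseudogenes, 7 unprocessed ones at 1063 to 5379 FPKM lie side by side on chromosome 1 between positions 24611535 and 24616197 (GRCm38). This stretch is a nuclear copy of mitochondrial DNA, so its 1.48, 1.54 and 1.61% of the estimated counts cannot be told apart from mitochondrial reads. The 4 microRNA rows among the 100 highest are 57 to 109 bases long, and each lies inside another gene. The highest of them, at 5594 FPKM, lies inside Ftl1 (2373 FPKM) on the same strand. The next 2, at 2884 and 2745 FPKM, lie inside Eef1a1 (3269 FPKM) and Rpl19 (1042 FPKM), also on the same strand. The last, at 461 FPKM, lies inside Zc3h7a on the opposite strand. Zc3h7a itself averaged only 11.4 FPKM, and the source of the reads of this last row was not tested. All pseudogene rows together took 17.6, 17.2 and 18.01% of the summed FPKM.

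The 20 highest of the other protein-coding genes are given by role. Eef1a1, the elongation factor that brings aminoacyl-tRNA to the ribosome, had 3519.9, 2913 and 3375 FPKM. Eef2, which moves the ribosome along the message, averaged 1203 ± 108 FPKM, Eef1g averaged 715 ± 91.1 FPKM and Eif5a, an elongation factor that relieves stalling, averaged 512 ± 65.6 FPKM. Ftl1 and Fth1, the light and heavy chains of the iron store ferritin, averaged 2373 ± 260.4 and 515 ± 56.6 FPKM. The cytosolic chaperones Hsp90ab1 and Hsp90aa1 averaged 1297 ± 108 and 571 ± 30.8 FPKM, and the mitochondrial chaperonin Hspd1 averaged 1049 ± 50.6 FPKM. Other nuclear and cytosolic proteins included Ptma (prothymosin alpha) at 1302 ± 221 FPKM, Npm1 (nucleophosmin) at 694 ± 47.7 FPKM and Tpt1 at 521 ± 35.1 FPKM. Ubb (polyubiquitin) averaged 907 ± 45.5 FPKM, Ppia (cyclophilin A) 633 ± 77.6 FPKM, Ldha (lactate dehydrogenase) 616 ± 120.5 FPKM and Cox8a (cytochrome c oxidase) 482 ± 29.8 FPKM. The remaining 4 of the 20 highest encode secreted or cell surface proteins. Lgals1 (galectin, a carbohydrate-binding protein) had 1466, 1266 and 1491 FPKM and Spp1 (osteopontin) had 751, 982 and 857 FPKM. B2m, the light chain of MHC class I, had 697, 605 and 695 FPKM, and Mif, a cytokine stored in the cytosol, had 499, 549 and 702 FPKM.

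Mast cell genes were described with a core list of 28 genes. The list was chosen with earlier results of these data known, so it is no independent check of the label. Of these genes, 20 (71.4%) reached 1 FPKM, beside 43.4% of all protein-coding rows, and 15 reached 10 FPKM. Each of these 20 was at 1 FPKM or more in every library. In bulk RNA, few cells with much of a transcript cannot be told apart from many cells with little. Kit (ENSMUSG00000005672, chromosome 5, positions 75574916 to 75656722, plus strand) had 136, 133 and 105 FPKM and ranked 390 of all rows. Gata2 (ENSMUSG00000015053, chromosome 6, positions 88193891 to 88207032, plus strand), the zinc finger transcription factor that mast cells require, had 172, 201 and 143 FPKM. Mitf, the factor that drives Kit and granule genes in mast cells, had 18.2, 14.8 and 13.2 FPKM. Replicate 3 was the lowest library for Kit, Gata2 and Mitf. In all it was lowest for 9 of the 20 core genes, beside 38.0% of all genes at 1 FPKM or more. Milr1, an inhibitory receptor of mast cells, averaged 6.14 ± 1.298 FPKM, and Il1rl1, the receptor for the alarmin IL-33, averaged 13.5 ± 0.926 FPKM.

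The genes of the high-affinity IgE receptor were not at similar levels. Fcer1g (ENSMUSG00000058715, chromosome 1, positions 171229572 to 171234365, minus strand), the signalling gamma chain that other Fc receptors share, had 208, 146 and 160.1 FPKM. Fcer1a (ENSMUSG00000005339, chromosome 1, positions 173221284 to 173227214, minus strand), the chain that binds IgE, had 0.506, 0.0575 and 0.0001 FPKM from 30, 4 and 0 estimated counts. Ms4a2 (ENSMUSG00000024680, chromosome 19, positions 11615523 to 11623719, minus strand), the beta chain that amplifies the signal, had 0.0639, 0.0612 and 0.0658 FPKM from 11, 12 and 14 estimated counts. A read pair is worth up to about 4 of these counts, so Fcer1a and Ms4a2 rest on few molecules, and 0.0001 FPKM is the table's placeholder for no count. A count of 0 allowed up to 12 counts (3 read pairs), or 0.226, 0.205 and 0.189 CPM (counts per 1000000). These limits cover counting error only.

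Granule proteases also differed widely. Cpa3 (ENSMUSG00000001865, chromosome 3, positions 20215620 to 20242181, minus strand), mast cell carboxypeptidase A, had 289.6, 183 and 185 FPKM and was the highest gene of the core list. Its replicate 1 stood above the other 2 libraries. The mast cell tryptases Tpsab1 and Tpsb2 had 6.29, 3.34 and 2.34 FPKM and 0.933, 1.18 and 0.532 FPKM. The chymases were also low, with 3.38, 3.45 and 3.42 FPKM for Cma1, which encodes the mouse chymase Mcpt5, and 0.574, 0.417 and 0.6103 FPKM for Mcpt4. In FPKM, a scale that accounts for transcript length, the level of Cpa3 was 46.1 to 79.1 times that of Tpsab1 and 52.99 to 85.7 times that of Cma1 in a library.

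Genes for the stored and newly made mediators were present with gaps. Srgn, the serglycin core protein that carries heparin, had 163, 135 and 149 FPKM. Hdc, which makes histamine from histidine, had 26.8, 27.4 and 26.95 FPKM, and Slc18a2, the transporter that loads histamine into granules, had 91.4, 70.4 and 66.7 FPKM. Ndst2, which sulfates heparin, averaged 60.6 ± 11.7 FPKM, Rab27b, a GTPase of granule release, 52.995 ± 6.06 FPKM, and Tph1, which starts serotonin synthesis, 2.86 ± 0.483 FPKM. Hpgds, which makes prostaglandin D, averaged 17.2 ± 1.64 FPKM. Alox5ap, the partner protein of the leukotriene-forming lipoxygenase, averaged 49.5 ± 3.701 FPKM, whereas the lipoxygenase gene Alox5 itself had 8, 5 and 27 estimated counts and Ltc4s, the leukotriene synthase, averaged 0.695 ± 0.153 FPKM. The adenosine receptor Adora3 averaged 37.4 ± 3.27 FPKM and the adaptor Lat2 31.7 ± 1.15 FPKM. Mrgprb1 and Mrgprb2, receptors for basic peptides in connective tissue mast cells, averaged 3.29 ± 0.446 and 0.859 ± 0.558 FPKM. Enpp3, the mast cell and basophil surface marker CD203c, had 0 counts in all 3 libraries.

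**Figure D2:**
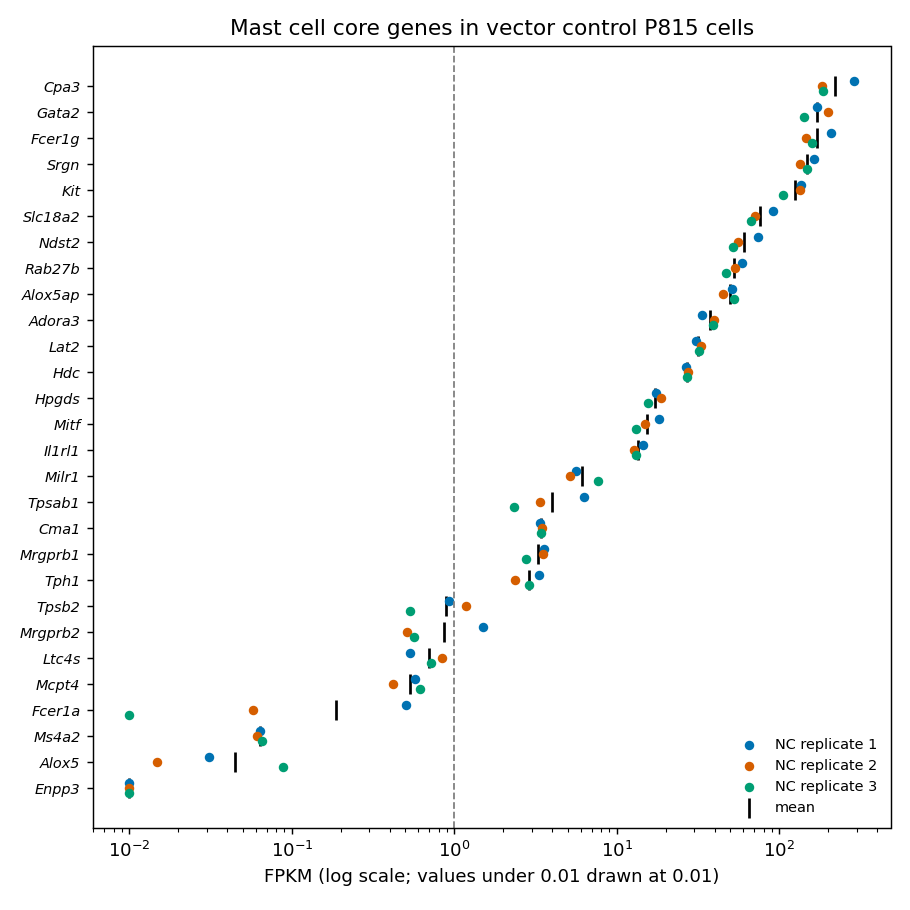
FPKM (log axis) of the 28 mast cell core genes in NC replicates 1, 2 and 3 (points) with the mean of the 3 libraries (vertical tick) and a dashed line at 1 FPKM. The 20 genes above the line lie to its right in every library, while the IgE receptor chains Fcer1a and Ms4a2 lie below 1 FPKM beside Alox5 and Enpp3.

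Because Gata2 was the highest haematopoietic transcription factor in these cells, GATA letters were looked up in the promoters of core genes. The 4 shown hold a match and span the range of levels. The windows below are RefSeq sequence (GRCm38.p6), from 120 bases before to 30 bases after the annotated start, 5′ to 3′ on the gene's strand, with the hexamers AGATAA and AGATAG as well as TGATAA and TGATAG in capitals on either strand. Their positions are chr3:20242152-20242301 (minus strand) for Cpa3, chr3:105904301-105904450 (plus strand) for Adora3, chr19:11623690-11623839 (minus strand) for Ms4a2 and chr1:173227200-173227349 (minus strand) for Fcer1a.
Cpa3: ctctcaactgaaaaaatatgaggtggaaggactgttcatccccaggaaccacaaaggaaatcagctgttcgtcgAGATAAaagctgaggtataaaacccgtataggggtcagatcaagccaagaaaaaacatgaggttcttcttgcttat
Adora3: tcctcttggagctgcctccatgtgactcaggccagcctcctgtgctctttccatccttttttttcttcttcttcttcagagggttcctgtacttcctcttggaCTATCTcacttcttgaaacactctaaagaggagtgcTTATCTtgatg
Ms4a2: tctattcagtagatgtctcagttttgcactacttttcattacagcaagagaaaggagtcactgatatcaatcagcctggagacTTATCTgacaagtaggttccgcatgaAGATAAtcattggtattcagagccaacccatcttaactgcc
Fcer1a: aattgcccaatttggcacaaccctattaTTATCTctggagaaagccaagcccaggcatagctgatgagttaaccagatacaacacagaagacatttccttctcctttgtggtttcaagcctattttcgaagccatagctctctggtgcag
Such letters thus stood in front of Cpa3 (219 ± 61.1 FPKM) and Adora3 (37.4 ± 3.27 FPKM) and also of Fcer1a (0.188 ± 0.277 FPKM) and Ms4a2 (0.0636 ± 0.002297 FPKM). Over the full 300 bases of the table, from 250 before to 50 after the start, 23 of the 28 core genes had a promoter. A match was found for 10 of the 16 such genes at 1 FPKM or more and for 6 of the 7 below it. Of all 32851 promoters of this length, 29.8% held a match, and of all gene symbols 33.04%. The promoters of Kit, Gata2, Srgn and Fcer1g in the table held none. A match is a description of the sequence, and binding was not measured.

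Of a wider set of granule proteases, 14 of 30 genes (46.7%) were at 1 FPKM or more, near the 43.4% of all protein-coding rows. The counts of the groups below are set beside the same share, and nothing is read from those close to it. The lysosomal protease Ctsd led with 445, 448 and 437 FPKM. Ctsg, the serine protease cathepsin G of mast cells and neutrophil precursors, had 373, 239 and 255 FPKM, above Cpa3 in each library, and both were highest in replicate 1. The level of Ctsd was even across the libraries. Gzmb, the granzyme B of cytotoxic cells, had 67.1, 66.3 and 65.1 FPKM, and the pore-forming Prf1 (perforin) had 23.6, 35.1 and 38.5 FPKM. Ctsc, which activates granule serine proteases, averaged 66.2 ± 12.5 FPKM, and Ctsz, Ctsb and Cpvl, lysosomal peptidases, averaged 90.99 ± 14.3, 43.7 ± 1.52 and 107 ± 12.3 FPKM. Of the cathepsins, Ctsl and Ctss stayed below the level with 0.324 ± 0.0355 and 0.274 ± 0.0396 FPKM. The mucosal mast cell chymases differed, with 4.99 ± 0.333 FPKM for Mcpt2 and 0.097998 ± 0.125 FPKM for Mcpt1.

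Storage and secretion genes were mostly present, with 23 of 30 at 1 FPKM or more. After Srgn, the granule membrane proteins Lamp1 and Cd63 led with 137 ± 1.55 and 135 ± 6.47 FPKM, and the lysosomal enzyme Gusb averaged 40.5 ± 5.46 FPKM. The membrane fusion genes Vamp8 and Vamp3 averaged 34.5 ± 3.45 and 29.3 ± 1.84 FPKM. Syt2, Syt9, Ddc, Hnmt and Slc18a1 were near 0.

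Glycosaminoglycan synthesis genes were partly present, with 19 of 28 genes at 1 FPKM or more. After Ndst2, the heparan sulfotransferase Hs6st1 averaged 51.8 ± 10.4 FPKM and the chondroitin enzymes Chst11 and Chsy1 25.8 ± 2.39 and 22.7 ± 1.81 FPKM. Heparan chains are elongated by a complex of Ext1 and Ext2. Ext2 had 8.98, 8.55 and 7.97 FPKM, whereas Ext1 had 0.0301, 0.0281 and 0.0163 FPKM from 15, 15 and 10 estimated counts. Of the xylosyltransferases that start the chain, Xylt2 averaged 1.99 ± 0.0841 FPKM and Xylt1 had 0, 4 and 0 counts. Eicosanoid enzymes gave 9 of 16, led by Ptges3 (108 ± 11.6 FPKM, a co-chaperone also called p23), Alox5ap and Pla2g4a, the phospholipase that frees arachidonic acid, at 27.7 ± 8.37 FPKM. The cyclooxygenases Ptgs1 and Ptgs2 had 10.6, 16.9 and 21.9 FPKM and 4.37, 9.49 and 4.36 FPKM.

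Of 47 genes listed for Kit, the IgE receptor chains and their signalling, 42 reached 1 FPKM. The adaptors Lcp2 (SLP-76) and Lat had 150.03, 165 and 167 FPKM and 164, 136 and 130.5 FPKM. The phosphatase Ptpn6 (SHP-1) averaged 91.05 ± 11.9 FPKM, the adaptor Grb2 82.1 ± 10.2 FPKM, the exchange factor Vav1 43.5 ± 2.02 FPKM and Nras 43.1 ± 2.52 FPKM. The tyrosine kinase Btk averaged 39.5 ± 0.485 FPKM, and the Src family kinases Lyn and Fyn averaged 16.8 ± 1.03 and 11.97 ± 2.02 FPKM. Syk, the kinase that couples the phosphorylated gamma chain to these adaptors, was an exception with 0.513, 0.368 and 0.439 FPKM. Besides Syk, the genes below the level were Fcer1a, Ms4a2, Grap2 and Spry2. Dusp6, a feedback phosphatase of the ERK pathway, had 50.9, 40.5 and 32.2 FPKM.

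Immediate early and feedback genes of the MAPK pathway were present, with 28 of 33 at 1 FPKM or more. Ier3 was the highest with 208, 326 and 244 FPKM. Myc had 78.8, 79.2 and 99.1 FPKM, Egr1 61.1, 61.6 and 36.7 FPKM, and the ETS factors Etv4 and Etv5, targets of ERK signalling, averaged 31.8 ± 2.36 and 28.6 ± 3.88 FPKM. The AP-1 genes were uneven, with 49.3 ± 6.03 FPKM for Jund, 45.6 ± 3.48 FPKM for Junb, 28.3 ± 4.95 FPKM for Jun and 3.71 ± 1.84 FPKM for Fos. Btg2, Klf4 and Spry2 were near 0.

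Marker lists of 14 other cell types were compared with the level of 1 FPKM, which 43.4% of protein-coding rows reached. None of the 9 eosinophil, 13 B and plasma cell, 7 epithelial or 7 endothelial markers did. The list of basophils, cells that share many genes with mast cells, had 5 of 10. These were Ifitm1 at 191 ± 16.5 FPKM, Gzmb, the basophil protease Mcpt8 with 7.94, 10.9 and 17.6 FPKM, Cd200r3 with 10.8, 6.62 and 7.03 FPKM and the IL-3 receptor chain Il3ra at 2.67 ± 0.489 FPKM. Prss34, a basophil protease, and Cebpa were near 0. The summed level of the basophil list was 272, 267 and 302 FPKM and that of the mast cell core list 1411, 1189.7 and 1120.4 FPKM. These sums run over 10 and 28 genes, with Fcer1a in both lists, so their sizes cannot be compared directly. The median gene had 1.43 FPKM in the basophil list and 14.5 FPKM in the mast cell core list.

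Myeloid and lymphoid lists were represented by isolated genes. Of the 12 neutrophil and promyelocyte genes only Ctsg reached 1 FPKM, while Elane and S100a8 were near 0, Mpo averaged 0.0605 ± 0.03999 FPKM and Prtn3 averaged 0.552 ± 0.166 FPKM. Of the 14 monocyte and macrophage genes, the lysosomal Cd68 averaged 20.2 ± 0.961 FPKM and lysozyme Lyz2 4.32 ± 0.763 FPKM, with Csf1r at 0.0623 ± 0.03099 FPKM. The dendritic cell list had 1 of 9, the chemokine receptor Ccr7 with 26.8, 24.7 and 30.6 FPKM. The T cell list had 1 of 16, the kinase Lck with 1.19, 1.25 and 1.28 FPKM, while Cd3d, Cd3e and Cd3g were near 0 and the CD3 zeta chain Cd247 averaged 0.176 ± 0.0402 FPKM. The NK cell list had 2 of 9, which were Prf1 and Nkg7, a cytotoxic granule protein with 1.16, 2.24 and 5.09 FPKM. Ncr1, which defines NK cells, had 0 counts.

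The megakaryocyte list had 3 of 11, with 14.1, 11.4 and 11.8 FPKM for Itga2b (CD41), 10.4, 8.82 and 4.84 FPKM for its partner Itgb3 and 5.72, 7.91 and 6.55 FPKM for the platelet chemokine Pf4. Gp1bb and Gp6, platelet glycoproteins, were near 0. Other members lay just under the level, the highest of them at 0.790 FPKM, and at 0.5 FPKM the list had 6 of 11. The stem and progenitor list had 5 of 12, namely Kit, Cd48, Erg, Hlf and Meis1, whereas Cd34 and Procr were near 0. The erythroid list had 1 of 12, the erythropoietin receptor Epor at 14.1 ± 1.12 FPKM, with the beta-globins near 0. The fibroblast list had 1 of 9, the receptor Pdgfrb with 9.25, 8.32 and 12.7 FPKM, while Dcn and Lum were near 0.

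**Figure D3:**
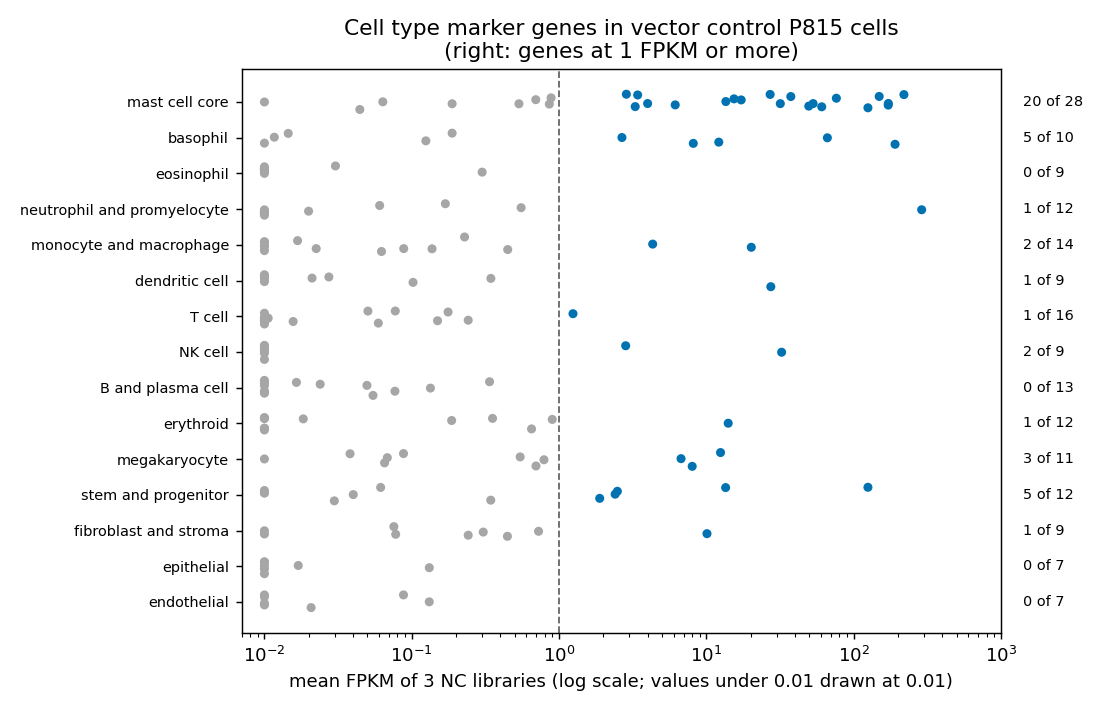
Mean FPKM over the 3 NC libraries (log axis) of every marker gene, by cell type list; blue points are at 1 FPKM or more, grey points below, and the counts on the right give the share above the dashed line. The mast cell core list has 20 of 28 genes above the line, the basophil list 5 of 10, and the eosinophil, B cell, epithelial and endothelial lists none.

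Of the 53 haematopoietic transcription factors, 35 reached 1 FPKM. After Gata2, the highest were the inhibitors of differentiation Id1 with 48.2, 81.5 and 144 FPKM and Id2 with 103, 66.96 and 72.7 FPKM, and Myc. Tal1, a partner of GATA factors, averaged 43.7 ± 4.74 FPKM and its bridging cofactor Ldb1 36.2 ± 3.66 FPKM. Tcf3 averaged 31.7 ± 2.16 FPKM, and Fli1, an ETS factor, 25.6 ± 2.904 FPKM. Gata1, the GATA factor of erythroid and mature mast cells, had 2.54, 3.13 and 4.79 FPKM, and the level of Gata2 was 29.8 to 67.7 times as high in FPKM in a library. Spi1 (PU.1) averaged 9.96 ± 1.06 FPKM. Factors that define other lineages were near 0, among them Pax5 and Ebf1 of B cells, Tcf7 and Bcl11b of T cells, Irf8 of monocytes and dendritic cells, and Cebpa of granulocytes.

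Cytokine and growth factor receptors gave 27 of 56 genes (48.2%, near the share of all protein-coding rows) at 1 FPKM or more. After Kit, Csf2rb, the beta chain shared by the IL-3, IL-5 and GM-CSF receptors, led with 54.1, 36.6 and 41.1 FPKM. Csf2rb2, its near-identical mouse paralog for IL-3, had 22.01, 20.04 and 17.1 FPKM, and reads may be split between these genes. The alpha chains were low, with 2.67 ± 0.489 FPKM for Il3ra, 0.3005 ± 0.113 FPKM for Il5ra and 0.0668 ± 0.0241 FPKM for Csf2ra. Il4ra had 29.2, 34.9 and 31.7 FPKM and its partner Il2rg averaged 10.5 ± 1.66 FPKM. Il18rap, the accessory chain of the IL-18 receptor, had 30.7, 30.4 and 29.8 FPKM, whereas the binding chain Il18r1 averaged 0.257 ± 0.0152 FPKM. Il1rl1 needs the accessory chain Il1rap to signal in response to IL-33, and Il1rap was near 0 with 8, 0 and 4 estimated counts. Il17ra averaged 17.04 ± 2.19 FPKM and Ifnar2, an interferon receptor chain, 18.3 ± 0.7301 FPKM. Tnfrsf1a and Tnfrsf1b, the receptors for TNF, averaged 0.233 ± 0.111 and 0.111 ± 0.0934 FPKM, and Fas averaged 0.7498 ± 0.378 FPKM.

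G protein-coupled receptors of immune cells were mostly low, and 18 of 51 reached 1 FPKM. F2r, the thrombin receptor PAR1, was the exception with 236, 281 and 249.5 FPKM. The next were the prostacyclin receptor Ptgir with 40.8, 38.4 and 34.99 FPKM, Adora3, Ccr7, the adhesion receptor Adgrg1 with 22.4, 22.1 and 19.2 FPKM and the prostaglandin E receptor Ptger3 with 20.8, 17.6 and 20.5 FPKM. The chemokine receptors Cxcr4, Ccr1, Ccr2 and Ccr3 were near 0. Histamine receptors Hrh1 and Hrh2 were near 0, and Hrh4 averaged 0.495 ± 0.274 FPKM.

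Nuclear receptors gave 16 of 48 genes at 1 FPKM or more. The retinoic acid receptor Rara had 12.9, 18.8 and 16.3 FPKM, the glucocorticoid receptor Nr3c1 18.04, 15.1 and 11.2 FPKM and the oxysterol receptor Nr1h2 16.04, 14.7 and 12.6 FPKM. The ranges of these 3 genes overlapped. Rxrb (10.4 ± 1.01 FPKM), Nr2f6 (9.24 ± 0.252 FPKM), Rarg (7.92 ± 1.69 FPKM), the orphan receptor Esrra (7.58 ± 0.466 FPKM) and Thra (6.07 ± 0.837 FPKM) followed. The estrogen receptors were below the level. Esr1 had 0.404, 0.435 and 0.187 FPKM from 329, 392 and 185 estimated counts, Esr2 had 4, 0 and 0 counts and the membrane estrogen receptor Gper1 0, 0 and 3 counts. Pgr was near 0.

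Among innate sensors, 10 of 26 (38.5%) reached 1 FPKM. The adaptors Myd88, Mavs, Tmem173 (STING) and Ticam1 averaged 16.3 ± 3.17, 14.7 ± 2.002, 13.8 ± 5.25 and 10.1 ± 0.785 FPKM. Tlr4 averaged 2.97 ± 0.748 FPKM and its partner Ly96 2.36 ± 0.167 FPKM, while Tlr2 and Cd14 were near 0. Of the inflammasome, the sensor Nlrp3 averaged 1.56 ± 0.277 FPKM, whereas the adaptor Pycard had 0, 0 and 0 and the protease Casp1 0, 8 and 0 estimated counts.

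Paired and checkpoint receptors gave 17 of 40 genes (42.5%, near that share) at 1 FPKM or more. Laptm5, a lysosomal protein of blood cells, averaged 128 ± 8.38 FPKM and Cd47, a ligand that inhibits phagocytosis, 76.6 ± 10.8 FPKM. The IgG receptor Fcgr3, which shares the Fcer1g chain, had 52.6, 47.6 and 48.2 FPKM, and the inhibitory IgG receptor Fcgr2b had 16.5, 8.47 and 11.99 FPKM. Cd200r4, Cd200r1 and Lilrb4a averaged 34.2 ± 6.61, 24.99 ± 7.32 and 18.8 ± 1.01 FPKM. Checkpoint receptors better known from T cells were present, with 5.34, 9.26 and 8.82 FPKM for Pdcd1 (PD-1), 7.16, 8.21 and 6.72 FPKM for Lag3 and 4.37, 5.98 and 4.79 FPKM for Havcr2 (TIM-3). Among integrins and adhesion genes, 17 of 30 reached 1 FPKM, and 1, which is not among the integrins named next, reached 100 FPKM. The beta chains Itgb7, Itgb1 and Itgb2 averaged 68.9 ± 14.1, 62.8 ± 1.37 and 39.5 ± 4.69 FPKM, above the alpha chains Itgal (16.95 ± 1.51 FPKM), Itga2b and Itga4 (4.59 ± 1.74 FPKM). Itgae, the mucosal partner of Itgb7, was near 0.

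Secreted cytokines and chemokines gave 23 of 56 genes (41.1%, near that share) at 1 FPKM or more. After Spp1 and Mif, Osm (oncostatin M) had 73.9, 171 and 126 FPKM, Grn (progranulin) 123, 135 and 109.9 FPKM, the monocyte chemokine Ccl7 67.1, 127 and 52.3 FPKM, Tgfb1 77.6, 65.8 and 83.1 FPKM and Ccl2 54.6, 90.7 and 55.3 FPKM. The mast cell cytokine Tnf had 37.7, 55.5 and 58.7 FPKM. Il6 had 23.4, 36.7 and 24.998 FPKM, Il13 9.52, 34.1 and 10.8 FPKM and Il4 14.5, 18.7 and 11.1 FPKM, whereas Il5 averaged 0.0503 ± 0.04401 FPKM and Il3 and Il9 were near 0. Replicate 2 was the highest library for Osm, Grn, Ccl7, Ccl2, Il6, Il13 and Il4, but not for Tgfb1 or Tnf. The ligand of Kit, Kitl, was near 0.

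Antigen presentation and ligand genes gave 26 of 42 at 1 FPKM or more. After B2m, the chaperones Calr and Pdia3 averaged 472 ± 30.3 and 297 ± 28.3 FPKM. The class I heavy chains H2-D1 and H2-K1 had 141, 122 and 138 FPKM and 42.5, 37.5 and 32.5 FPKM. P815 comes from a mouse strain whose class I alleles differ from those of the reference genome, so these values rest on reads that match the reference alleles. The peptide transporter genes Tap1 and Tap2 averaged 7.91 ± 0.904 and 22.8 ± 1.81 FPKM. The class II genes H2-Aa, H2-Ab1 and H2-Eb1 and their activator Ciita were below 0.1 FPKM in the mean. Cd274 (PD-L1), which inhibits T cells, had 24.9, 28.5 and 17.996 FPKM and the co-stimulatory ligands Tnfsf9 and Tnfsf4 averaged 14.2 ± 4.75 and 10.8 ± 2.99 FPKM, while Cd80 averaged 0.0729 ± 0.0722 FPKM and Cd86 was near 0.

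Trap1a (ENSMUSG00000051257, chromosome X, positions 139333683 to 139338169, plus strand) encodes P1A, the tumour rejection antigen first isolated from P815 cells. It had 292, 282 and 305 FPKM and ranked 152 of all rows. Of the 39 tumour antigen and germ line genes measured, 6 (15.4%) reached 1 FPKM. The other 5 were below 10 FPKM and included the X-linked homeobox gene Rhox5 with 2.76, 2.06 and 3.396 FPKM, Maged1 and Maged2. The Magea genes and Ddx4, a germ cell helicase, were near 0.

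The cell cycle list was nearly complete, with 41 of 44 genes at 1 FPKM or more. The replication clamp Pcna had 146, 183 and 220.3 FPKM, Rrm2, a subunit of ribonucleotide reductase, 63.2, 140.5 and 159.8 FPKM and the helicase subunit Mcm3 109, 138 and 145 FPKM. Replicate 1 was the lowest library for these 3 genes. Ccnd1 (cyclin D1) had 115, 118 and 128 FPKM and its kinase Cdk4 89.5, 94.2 and 107 FPKM. The inhibitor Cdkn1a (p21) had 112, 136 and 119.6 FPKM, Trp53 42.03, 50.9 and 51.1 FPKM and Mdm2 averaged 20.2 ± 3.27 FPKM. The 3 genes below the level were Rb1 with 0.858, 0.778 and 0.531 FPKM and the inhibitors Cdkn2a and Cdkn2b with no count in any library. Survival genes of the BCL2 family gave 13 of 21. The anti-apoptotic Mcl1 and Bcl2l1 averaged 81.3 ± 6.08 and 42.7 ± 6.63 FPKM, beside the effectors Bax and Bak1 with 70.5 ± 0.716 and 60.9 ± 1.81 FPKM and the BH3-only genes Bbc3 and Bid with 39.8 ± 9.101 and 36.6 ± 1.43 FPKM.

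Cdkn2a (ENSMUSG00000044303, chromosome 4, positions 89274471 to 89294653, minus strand) lay in a longer stretch with hardly any counts, which was examined after its values were seen. The nearest protein-coding genes at 1 FPKM or more were Focad on one side, which ends at position 88411011 and had 2.55, 2.103 and 2.13 FPKM, and Caap1 on the other, which starts at position 94500081 and had 4.2005, 4.17 and 4.94 FPKM. They are 6.09 Mb apart. By the choice of these bounds, no protein-coding row between them could reach 1 FPKM. Of the 42 protein-coding rows between them, 39 had 0 counts in all 3 libraries, as had 7018 of all 21804 protein-coding rows. By symbol, 17 of the 42 are type I interferon genes, and rows with predicted names were not assigned to a family. Mtap, a purine salvage enzyme found in most tissues, had 0, 0 and 0 counts, Cdkn2b 0, 0 and 0 and Dmrta1 0, 0 and 0. The 3 rows with any count were Klhl9 (10, 12 and 4), Elavl2 (0, 0 and 12) and a row with a predicted name that had at most 54. DNA was not measured, so the copy number of this stretch was not tested.

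The X-linked genes Ddx3x, Eif2s3x, Kdm5c and Kdm6a averaged 95.7 ± 5.54, 79.5 ± 6.82, 13.3 ± 2.32 and 4.63 ± 0.695 FPKM, whereas their Y-linked partners Ddx3y, Eif2s3y, Kdm5d and Uty were near 0. Xist, which is X-linked, was also near 0. Of 1569 rows on chromosome Y, 1 reached 1 FPKM, a long non-coding RNA with a predicted name. Iron genes gave 18 of 20. After ferritin, the haem oxygenase Hmox1 averaged 100.2 ± 11.6 FPKM and the transferrin receptor Tfrc 93.2 ± 9.32 FPKM, while the iron exporter Slc40a1 and the erythroid haem enzyme Alas2 were near 0.

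Agreement between the libraries was described over the 11189 genes. On the log2(FPKM + 1) scale, Pearson's r across genes was 0.972 for replicates 1 and 2, 0.965 for replicates 1 and 3, and 0.974 for replicates 2 and 3. Genes are not independent replicates, so these values are descriptions. The share of genes at least 2-fold apart was 4.88%, 6.59% and 4.71% for the same pairs. The median coefficient of variation (CV, SD over mean) was 0.136. It was 0.208 for the 2535 genes from 1 to below 3 FPKM, which had a median of 453 estimated counts. It was 0.141 for 3937 genes from 3 to below 10 FPKM, 0.109 for 2895 genes from 10 to below 30 FPKM, and 0.101 both from 30 to below 100 FPKM and above. Above 100 FPKM the median was 25731 counts, and the 10th and 90th percentiles of the CV were 0.0436 and 0.252. Mitochondrial protein-coding genes had a median CV of 0.0597, ribosomal protein genes one of 0.09002 and the mast cell core genes one of 0.136.

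**Figure D4:**
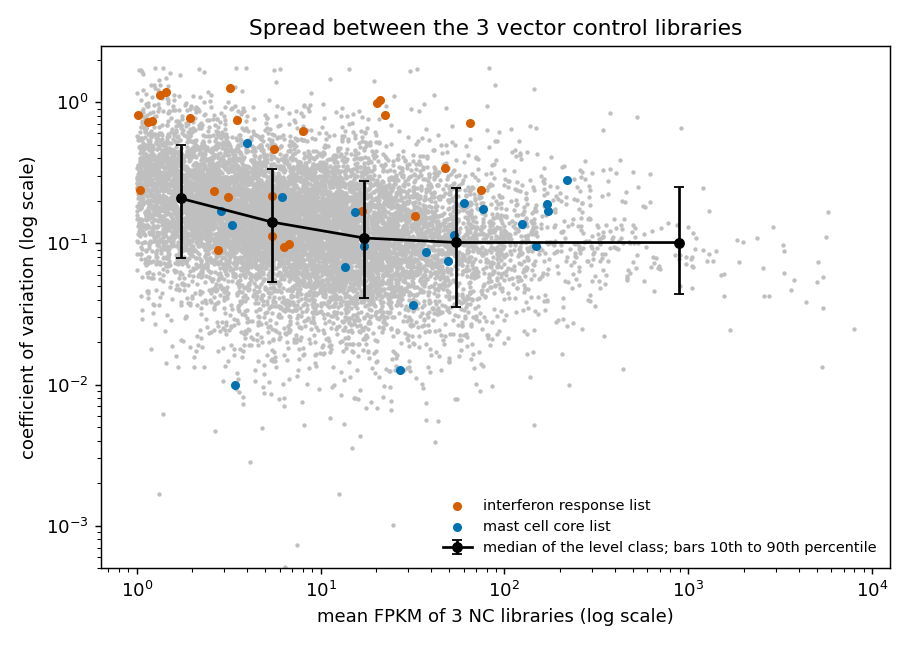
Coefficient of variation over the 3 NC libraries (log axis) against mean FPKM (log axis) for genes at 1 FPKM or more (grey), with the median of each level class and its 10th to 90th percentile (black), the mast cell core list (blue) and the interferon response list (orange). The class median falls to 0.101 above 30 FPKM, and the interferon genes Rsad2, Ifit1 and Oasl1 are among the 10 most uneven protein-coding genes at 10 FPKM or more. Rsad2 and Ifit1 reach 10 FPKM in replicate 2 alone, and the interferon list was added after the values were seen.

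The most even protein-coding genes at 10 FPKM or more were Ppan, Polr2i, Ndufb7, Nt5c, Carm1, Ddx47, Supt4a, Naa50, Hmg20b and Emc3. Ppan, a ribosome assembly factor, had 24.7, 24.7 and 24.8 FPKM and Polr2i, an RNA polymerase II subunit, 12.6, 12.6 and 12.7 FPKM. The most uneven were Rpl10-ps3, Rsad2, Ifit1, Nup62, Ccl3, Fen1, Ccl4, Oasl1, Ndor1 and Il13. Of these 10 genes, 6 (Rsad2, Ifit1, Oasl1, Ccl3, Ccl4 and Il13) are interferon-induced genes or cytokines, and each was highest in replicate 2, as was Fen1. Of all genes at 1 FPKM or more, 28.2% were highest in replicate 2. The 10 genes were picked for their spread between these same libraries, and the grouping was made after they were seen. Rsad2, Ifit1 and Ccl3 were at 10 FPKM or more in replicate 2 alone. Rsad2 (viperin) had 8.86, 46.4 and 7.99 FPKM, Ifit1 7.55, 43.1 and 9.88 FPKM and Oasl1 10.8, 43.02 and 13.1 FPKM. The chemokines Ccl3 and Ccl4 had 1.44, 21.2 and 8.298 FPKM and 9.69, 62.9 and 21.04 FPKM.

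Overlapping rows accompanied 3 of the other 4. Nup62, a nuclear pore gene, had 14.9, 17.2 and 77.5 FPKM, and Atf5 on the opposite strand of the same place had 79.0, 52.4 and 24.5 FPKM. With the counts of both rows summed, the CV of the summed CPM was 0.282, against 0.973 for the FPKM of Nup62 alone. Ndor1 has 2 rows on the same strand, with 1.02, 19.98 and 20.9 FPKM in one and 14.2, 5.28 and 4.52 FPKM in the other, and the CV of their summed counts was 0.111. Fen1, a DNA repair nuclease, had 7.099, 47.03 and 14.3 FPKM, and Tmem258, which it overlaps, had the more even levels of 62.4, 53.8 and 58.0 FPKM. The CV was 0.934 for the FPKM of Fen1 alone and 0.305 for their summed counts. Adding a more even row can lower a CV by itself, for Nup62 and Ndor1 as for Fen1, so nothing is read from these differences. The CV of a row alone is one of FPKM, and that of a sum is one of CPM. With a second overlapping row, which has a predicted name, the summed counts of Fen1 had a CV of 0.841. Rpl10-ps3, which the table lists as protein-coding, had 25.6, 16.9 and 223 FPKM and is a copy of a ribosomal protein gene. The strand protocol is not stated, so these values are uncertain.

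Some lists also differed between the libraries, which was noticed when the values were examined. A gene could reach the level through the library where it is high, so for these counts the level was taken on the mean of the other 2 libraries, a choice also made after seeing the data. Of all genes so kept, 27.3% had their highest value in replicate 2. Of a list of 39 interferon response genes, added after the values were seen, replicate 2 was highest for 14 of 19, with a median log2 ratio of its FPKM to the gene's mean of 0.31. At a level of 10 FPKM in the other 2 libraries it was highest for 2 of 6, with a median of -0.08, against 23.4% of all genes. With the level on the mean of all 3 libraries the count was 20 of 26 at 1 FPKM and 4 of 8 at 10 FPKM. Isg15, a ubiquitin-like interferon product, had 33.6, 119 and 43.4 FPKM and the chemokine Cxcl10 0.385, 7.84 and 1.39 FPKM. Cxcl10 was below 1 FPKM in the mean of replicates 1 and 3, so it is not among the genes kept on those libraries. The cytokine and chemokine list, Cxcl10 among its listed genes, was highest in replicate 2 for 17 of 21 genes and for 11 of 15 at 10 FPKM. The MAPK response list was highest there for 16 of 28.

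Replicate 1 held the lowest value of 33.8% of all genes kept by the other 2 libraries. It was lowest for 33 of 41 cell cycle genes, and the median log2 ratio of these genes to their mean was -0.32, 0.05 and 0.18. The mitotic activator Cdc20 had 35.2, 64.8 and 79.8 FPKM and the mitotic kinase Plk1 12.8, 23.1 and 31.3 FPKM. Replicate 1 was highest for 5 of 5 stem and progenitor genes, with 3.63, 2.22 and 1.35 FPKM for the transcription factor Hlf, and for 12 of 20 mast cell core genes. Of all genes kept in this way, 37.4% had their highest value in replicate 1. Replicate 1 was also the library with the fewest counts. The part of depth, culture or handling in these shifts was not tested.

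**Figure D5:**
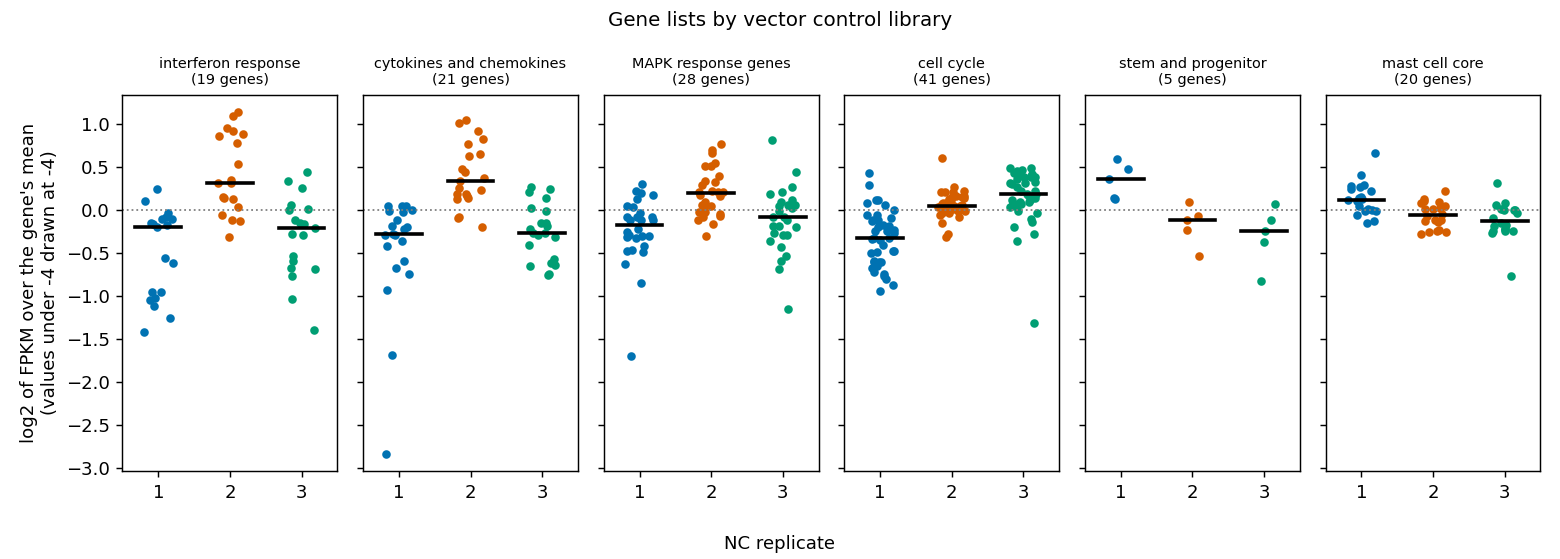
Log2 of a gene's FPKM over its own mean in NC replicates 1, 2 and 3 for 6 lists (points), with the median of each list (bars). Genes are those at 1 FPKM or more in the mean of replicates 1 and 3 (interferon, cytokine and MAPK lists) or of replicates 2 and 3 (the other lists). The interferon and cytokine medians are 0.31 and 0.34 in replicate 2, and the cell cycle median is -0.32 in replicate 1.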

How the data were processed

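Total RNA of 3 P815 libraries carrying a negative control vector was extracted with TRIzol and sequenced by standard Illumina methods, per the labels. The submitters' processing notes name cutadapt, HISAT2 and the GRCm38 build, without versions. The strand protocol, quantifier and annotation are not stated in the labels or headers. The authors deposited FPKM values per gene, with 0.0001 as the placeholder for no count, and, per the file headers, counts, which were taken as estimated counts since low values pile up at multiples of 4 (15.97% of values from 1 to 40 equal 4). These deposited estimated counts are whole numbers and were not rounded further.

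Gene symbols and coordinates are those of the table; 94.3% of the 55144 gene IDs shared with GENCODE release M21 have the same coordinates there. Levels are the mean and SD of FPKM over the 3 libraries, with a level cut of 1 FPKM and no pseudocount except 1 in correlations. For a symbol with several rows the highest was taken. "Near 0" means a mean under 0.05 FPKM. Values were computed in Python 3.11.15 with pandas 2.3.3, and the counting rules for spread were tested on simulated data. TMM scaling (edgeR 4.0.16) served as an alternative for the CV, the number of genes at the cut, 2 list counts and the mean FPKM of 13 genes, and DESeq2 1.42.0 size factors for the CV. Depth was 53.1 to 63.5 M estimated counts a library.

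The genes and lists were chosen with earlier results of these data known. Named are the 20 highest protein-coding genes outside the mitochondrial and ribosomal groups, the mast cell core list in full, up to 8 leading members of each list and defining members below the cut, the 10 most and least variable genes at 10 FPKM or more, and 3 genes on each side of the cut. Predicted names were counted and not named. The symbols of 6 listed genes have no row in the table. No comparison between groups and no test was made. The other 21 libraries were not used. Some listed genes are not reported here.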

Additional observations from a re-analysis of the deposited data

How the results depend on the processing

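The number of genes at or above the level cut was 11189 and ran from 9458 (protein-coding rows only) to 13123 (FPKM rescaled to 1000000 per library) over 7 alternatives, and from 11142 to 11230 with a library left out. The number of mast cell core genes was 20, and ran from 20 to 24 over the alternatives. The share of the 100 highest genes was 39.8% of summed FPKM, 32.1% with mitochondrially encoded genes left out and 20.4% of summed counts, and 39.8% to 39.9% with a library left out. The mitochondrial share of counts was 5.34%, with 14.4% of summed FPKM and 6.88% with the nuclear copy on chromosome 1 added, an alternative chosen after seeing the data. With a library left out it was 5.29% to 5.41%. The median CV was 0.136, with 0.135 under either count scaling, 0.106 for genes at 10 FPKM or more and 0.188 for any gene above 0 in each library. Over the pairs of libraries it was 0.104 to 0.130. Of the 26 interferon response genes, 20 were highest in replicate 2, against 14 of 19 with the level on replicates 1 and 3, and 4 of 8 at 10 FPKM or more, both chosen after seeing the data. Of 297 alternatives for the other lists and single genes, 287 stayed within 1.5 times the count or 1 SD of the level. The 10 that moved were all counts of the neutrophil, T cell, erythroid, megakaryocyte and fibroblast lists. At 0.5 FPKM the megakaryocyte count was 6 (3 at 1 FPKM), the erythroid 3 (1), the fibroblast 2 (1) and the neutrophil 2 (1). At 2 FPKM the T cell count was 0 (1 at 1 FPKM). These small counts depend on the cut. For a single gene, leaving out 1 of the 3 libraries always moves the mean by less than 1 SD. Those alternatives were therefore bound to stay and say nothing about stability. Fcer1a, for example, stayed by this rule with a mean of 0.188 FPKM and of 0.0288 FPKM without replicate 1. No paired analysis was possible because no groups were compared. At this depth a count of 0 allows up to 12 estimated counts, and genes from 1 to below 3 FPKM had a median of 453 counts.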

Other observations

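The genes in this paragraph were chosen after their values were seen. Gyg, which encodes glycogenin, the primer of glycogen synthesis, lies 60.3 kb from Cpa3 on chromosome 3 and on the same strand. Gyg had 521, 291 and 313 FPKM and ranked 110 of all rows, above Cpa3 with 289.6, 183 and 185 FPKM, and both were highest in replicate 1. The other protein-coding genes within 200 kb of Cpa3 were lower, with 6.04 ± 1.65 FPKM for the DNA translocase Hltf, 3.43 ± 1.24 FPKM for the organelle biogenesis gene Hps3, 0.883 ± 0.182 FPKM for the pancreatic carboxypeptidase Cpb1 and 0 counts for Agtr1b. Hps3 and Hltf were also highest in replicate 1, with 4.85, 2.79 and 2.63 FPKM and 7.95, 5.13 and 5.04 FPKM, whereas Cpb1 was lowest there with 0.681, 1.03 and 0.934 FPKM. Over all genes at 1 FPKM or more, 38.5% were highest in replicate 1.

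The genes named next were also picked after their values were seen, from a mixed set ranking below the 20 highest. Aldoa, Pkm and Pgk1, enzymes of glycolysis, averaged 449.8 ± 66.5, 433 ± 58.6 and 403 ± 51.6 FPKM. P4hb and Hspa5, which fold proteins in the endoplasmic reticulum, averaged 433 ± 47.3 and 365 ± 81.1 FPKM. Cst7, cystatin F, an inhibitor of the cathepsin that activates granule proteases, had 363, 330.1 and 359 FPKM. Among named non-coding RNAs, the small nucleolar RNA host genes Snhg1, Snhg8 and Gas5 averaged 99.9 ± 9.64, 41.2 ± 2.86 and 34.5 ± 2.52 FPKM.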
